A study of Mus musculus with 19 samples.

Results

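The endothelium lines every vessel as a single cell layer, and the cells share a small set of surface proteins, receptors and enzymes by which they are recognised. The 10 genes described here are such endothelial identity genes: Pecam1, Cdh5, Kdr, Tek, Tie1, Vwf, Nos3, Emcn, Eng and Erg. They were taken from the deposited table by gene symbol and make up 10 of its 20408 genes, and all 10 passed the filter on low values that left 14845 genes to test.

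The bulk RNA-Seq data come from suprarenal abdominal aortas of male ApoE-/- mice on a C57BL/6J background, 19 mice in 4 groups. Every mouse carried SMA-CreERT2, a tamoxifen-activated Cre driven by the smooth muscle actin promoter, and was given tamoxifen at 8 weeks of age. The IKKβ-/- mice also carried floxed alleles of Ikbkb, which encodes the kinase IKKβ of the NF-κB pathway, so the deletion was aimed at smooth muscle and endothelial cells were not its target. Controls are called IKKβ+/+ and have the Cre without the floxed alleles. Osmotic pumps delivered angiotensin II (Ang II), at 500 to 1000 ng per minute per kg by the labels, or saline for 24 h; the study's methods name only the upper dose for these libraries. There were 5 IKKβ+/+ saline, 5 IKKβ+/+ Ang II, 4 IKKβ-/- saline and 5 IKKβ-/- Ang II mice, each sequenced as 1 library of the vessel segment. The values are normalized read counts, that is, reads per gene divided by a size factor for the library, and the libraries held 11382573 to 19906694 reads on genes. The mouse numbers run in blocks by group and the labels name no batch, so a batch and a group cannot be told apart.

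Ikbkb itself was lower in the deleted mice. Its normalized read counts were 594, 791, 695, 609 and 678 in IKKβ+/+ saline mice and 464, 572, 586 and 439 in IKKβ-/- saline mice, with no overlap, a log2 fold change of -0.39 ± 0.12 (SE; limma adjusted p = 0.0988). With Ang II the counts were 708, 772, 685, 686 and 779 in IKKβ+/+ and 572, 430.2, 672, 515 and 549 in IKKβ-/- mice, again with no overlap (log2 fold change -0.42 ± 0.12), although limma did not call it over all genes (adjusted p = 0.173). The exact two-sided permutation test over mice gave p = 0.00794 for each, the smallest p these group sizes allow. Smooth muscle markers were far above endothelial ones: the summed normalized count of Myh11, Acta2 and 6 other smooth muscle genes ranged from 318151 to 661562. Sums were 8654 to 34686 for 22 endothelial genes other than the members and 109092 to 285071 for 7 fibroblast markers, none scaled for gene length. Pecam1, the most abundant endothelial member, ranged from 3696 to 16679.

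Endothelial cells hold together through junction proteins, of which Cdh5 (VE-cadherin) is the adhesion molecule of adherens junctions and Pecam1 (CD31) an adhesion receptor along the cell border. Growth and quiescence signals arrive through receptor tyrosine kinases: Kdr is the main VEGF receptor, Tek (Tie2) binds the angiopoietins, and Tie1 is its partner with no ligand of its own in the classical scheme. Eng is a co-receptor for BMP ligands, Nos3 makes nitric oxide, Vwf is the platelet-tethering glycoprotein stored in Weibel-Palade bodies, Emcn is a sialomucin of capillary and venous endothelium, and Erg is an ETS-family transcription factor that maintains the endothelial state.

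The 10 genes lie on 8 chromosomes of GRCm38, the build of the files. Cdh5 spans chr8:104101625-104144511, Pecam1 chr11:106654217-106750628, Kdr chr5:75932827-75978458, Tek chr4:94739289-94874976 and Tie1 chr4:118471191-118490061. Eng spans chr2:32646595-32682669, Nos3 chr5:24364810-24384474, Vwf chr6:125546774-125686679, Emcn chr3:137341067-137432185 and Erg chr16:95359169-95586593. Exons of 8 of the 10 overlap no other gene of GENCODE M21. Those of Nos3 overlap Atg9b and Gm15587, and those of Eng overlap Fpgs, all on the opposite strand. The libraries were stranded, but whether the counting used the strand is not given in the sources used here, so reads of these overlaps are uncertain.

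ETS factors bind DNA around a GGAA core, so the 250 bases before the annotated start were searched on both strands for CGGAAG and AGGAAG. These are shown for Tek, which fell with Ang II, for its partner Tie1, for Kdr, which rose in IKKβ-/- mice, and for Eng, whose share relative to Pecam1 rose in both genotypes. The sequences are from RefSeq on GRCm38.p6, written 5′ to 3′ on the strand of the gene, and capitals mark a match to either word. Tek is on the plus strand at chr4:94739039-94739288, Tie1 on the minus strand at chr4:118489850-118490099, Kdr on the minus strand at chr5:75978456-75978705 and Eng on the plus strand at chr2:32646345-32646594.

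Tek: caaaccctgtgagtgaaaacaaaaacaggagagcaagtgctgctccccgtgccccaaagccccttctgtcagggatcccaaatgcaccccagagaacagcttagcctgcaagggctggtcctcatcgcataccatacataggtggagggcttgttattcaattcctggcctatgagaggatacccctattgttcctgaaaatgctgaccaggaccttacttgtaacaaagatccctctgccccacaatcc
Tie1: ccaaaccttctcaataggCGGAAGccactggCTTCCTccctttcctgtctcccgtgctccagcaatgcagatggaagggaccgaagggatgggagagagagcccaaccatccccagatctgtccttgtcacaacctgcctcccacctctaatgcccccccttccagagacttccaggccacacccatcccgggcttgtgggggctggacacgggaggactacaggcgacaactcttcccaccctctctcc
Kdr: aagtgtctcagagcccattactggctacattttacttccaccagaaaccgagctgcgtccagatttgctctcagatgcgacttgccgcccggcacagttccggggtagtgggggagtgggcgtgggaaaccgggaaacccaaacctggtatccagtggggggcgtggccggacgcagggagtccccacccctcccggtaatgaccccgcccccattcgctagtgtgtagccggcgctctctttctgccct
Eng: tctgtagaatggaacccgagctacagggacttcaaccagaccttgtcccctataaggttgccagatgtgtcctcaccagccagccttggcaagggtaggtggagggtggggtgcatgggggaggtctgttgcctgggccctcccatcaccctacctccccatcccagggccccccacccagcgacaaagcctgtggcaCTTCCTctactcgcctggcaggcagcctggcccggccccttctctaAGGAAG

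Tie1 held 1 match of each word, beginning 232 and 219 bases before its RefSeq start, and Eng held 2 matches of AGGAAG, at 52 and 6 bases. The RefSeq start of Tie1 lies inside the gene span given above, so much of its window is within that span. No match was found in these windows of Tek and Kdr. Of the other members in the table, Emcn held 2 matches, at 174 and 93 bases before its start, and of the 3 annotated starts of Erg 1 held a single match. Over all 32851 promoters of that length, 39.2% held at least one of the words, 29.5% AGGAAG and 13.6% CGGAAG, so a match is common. Promoters were matched for 6 of the 10 members, and Pecam1, Cdh5, Vwf and Nos3 were not among them.

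In IKKβ+/+ saline mice, levels per kb of exon placed Pecam1 far above the rest, at 2252 ± 357 (SD, n = 5) normalized counts per kb. Vwf (571 ± 158), Tek (542 ± 77.9), Eng (525 ± 70.1), Cdh5 (508 ± 93.6), Nos3 (387 ± 80.3), Erg (294 ± 39.0) and Tie1 (241 ± 42.6) followed, and each of these overlapped the next in the order. Emcn (36.8 ± 13.6) and Kdr (12.4 ± 4.67) stood apart below all of them, without overlap between Tie1 and Emcn or between Emcn and Kdr. Kdr, one of the best known endothelial markers, was thus the least abundant member in this vessel. Only 29.0 to 417 normalized read counts of Kdr and 47.3 to 847 of Emcn were seen in any library. Values of both mostly carry more counting error than those of the other members.

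**Figure D1:**
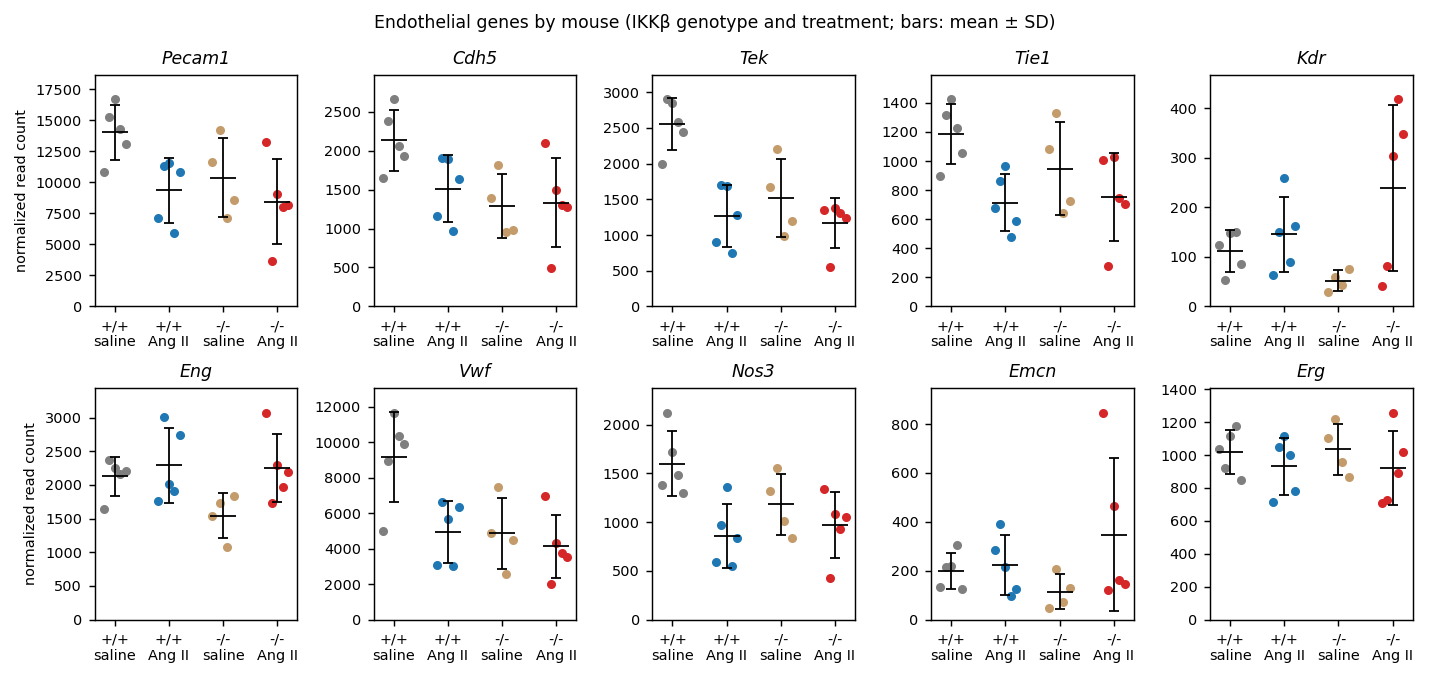
Normalized read count of each of the 10 endothelial genes (vertical axes, from 0, 1 panel per gene) in the 4 groups (horizontal axis, IKKβ genotype and treatment). Points are mice and bars give the mean ± SD; the 5 Tek values with Ang II in IKKβ+/+ mice sit between 754 and 1700.3, all below the saline mice, while Kdr with Ang II in IKKβ-/- mice splits into 2 low and 3 high mice.

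The first comparison asks what 24 h of Ang II did to these genes in mice with intact IKKβ. Tek and Nos3 were lower with Ang II, 2 of the 10 genes called, where 8.66% of all genes tested were called in this comparison. Calls required a fold change above 1.2 and a Benjamini-Hochberg adjusted p below 0.1 in limma, fitted on log2(normalized count + 1) over all tested genes. The log2 fold changes of the 10 genes had a median of -0.57 (0.01 over all genes tested), 7 of the 10 were negative, and 5 had an unadjusted p under 0.05, as did 3018 of the 14845 genes tested. Fewer endothelial cells in the segment and less RNA of these genes per cell cannot be told apart in bulk tissue.

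Tek, the angiopoietin receptor, was at 1991, 2900.3, 2850.4, 2588 and 2441 normalized read counts in IKKβ+/+ saline mice. With Ang II it was at 899.7, 1700.3, 1682, 754 and 1285. Every Ang II mouse was below the lowest saline mouse. The log2 fold change was -1.08 ± 0.27 (SE), with a 95% interval of -1.63 to -0.52 and an adjusted p of 0.0299. The call rested on mouse X2358, the lowest of the group: without it the log2 fold change was -0.91 and the adjusted p 0.101. Tie1, the partner receptor, was at 899, 1319.5, 1424, 1229.5 and 1057 with saline and at 679, 861, 963, 479 and 590.4 with Ang II. Its groups overlapped by a single pair of mice, and its log2 fold change of -0.76 ± 0.29 had an adjusted p of 0.139.

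Nos3, the nitric oxide synthase of endothelium, was at 1379.6, 2122, 1720.0, 1487 and 1297 normalized read counts with saline and at 591, 966, 1362, 555 and 834 with Ang II. A single Ang II mouse, at 1362, reached into the saline range. The log2 fold change was -0.95 ± 0.27 (adjusted p = 0.0516). It was not called without X2350, X2358, X2372 or X2373, with adjusted p from 0.102 to 0.155. Vwf, the platelet-tethering protein, was at 4985, 8942, 11676, 10378 and 9893 with saline and at 3083, 6645, 5660.3, 3039 and 6344 with Ang II. Mouse X2370 was the lowest saline mouse for Vwf and the remaining 4 were above every Ang II mouse. Vwf had a log2 fold change of -0.92 ± 0.32 (adjusted p = 0.109). It passed in 7 of the 19 fits that left out 1 mouse, with an adjusted p of 0.0659 without X2370.

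The junction genes gave smaller values in the same direction that were not called. Pecam1 ranged from 10812 to 16679 normalized read counts with saline (median 14320.4) and from 5945 to 11549 with Ang II (median 10843), a log2 fold change of -0.62 ± 0.27 (adjusted p = 0.202). For Cdh5 the ranges were 1649.8 to 2658 and 971 to 1903, with a log2 fold change of -0.53 ± 0.29 (adjusted p = 0.321). The remaining genes had log2 fold changes near 0 or with wide intervals. Erg was at -0.14 ± 0.16 (95% interval -0.47 to 0.19), Eng at 0.09 ± 0.18 (-0.28 to 0.45), Emcn at 0.06 ± 0.51 and Kdr at 0.31 ± 0.54 (-0.81 to 1.43).

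**Figure D2:**
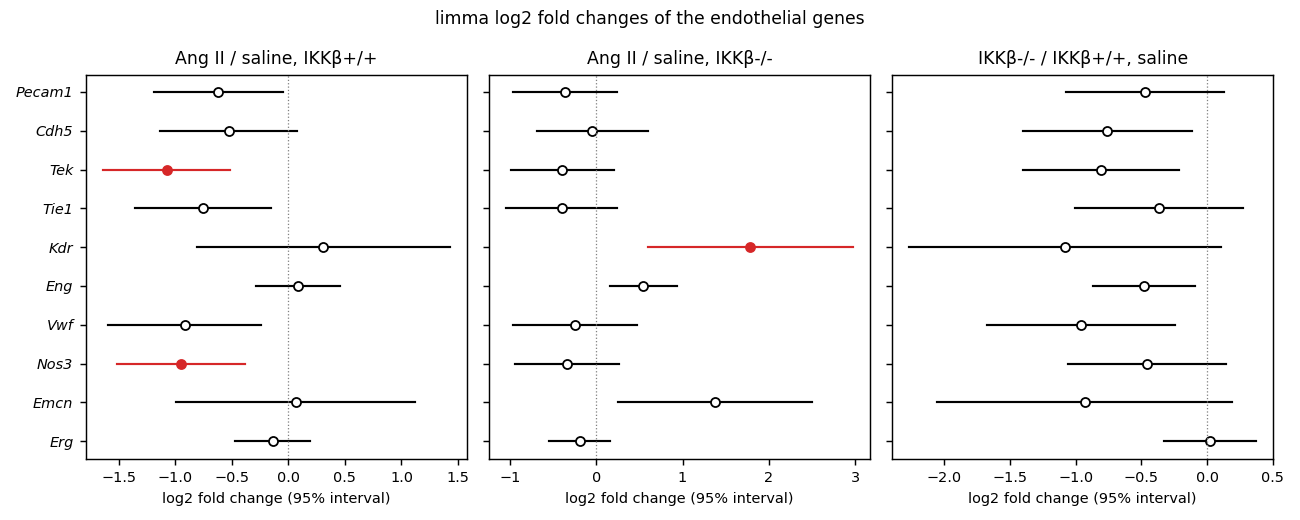
limma log2 fold change (horizontal axes) of each gene (vertical axis) with its 95% interval, for Ang II against saline in IKKβ+/+ mice, the same in IKKβ-/- mice, and IKKβ-/- against IKKβ+/+ mice with saline. Filled red points are genes called: Tek at -1.08 and Nos3 at -0.95 on the left, Kdr at 1.79 in the middle, and none on the right.

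The same Ang II question was asked in IKKβ-/- mice. Kdr was higher, 1 of the 10 genes called against 5.29% of all genes tested, and no member was lower. The median log2 fold change of the 10 genes was -0.22 (0.00 over all genes tested). Kdr was at 29.0, 60.0, 43.2 and 76.2 normalized read counts with saline and at 40.7, 81.0, 304, 417 and 348 with Ang II. The last 3 Ang II mice were above every other mouse of the series, and the first one, X2380, lay inside the saline range. The log2 fold change was 1.79 ± 0.57 (95% interval 0.60 to 2.97) with an adjusted p of 0.0990, at the edge of the threshold. The call for Kdr was lost in 13 of the 19 fits that left out 1 mouse, over which the log2 fold change ran from 1.47 to 2.30 and the adjusted p from 0.0150 to 0.239.

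Kdr moved together with markers of other cell types. The 10 adipocyte markers, with Adipoq and Plin1 among them, summed to 1169 to 1808 normalized read counts in IKKβ-/- saline mice and to 1967 to 15883 with Ang II, and none of the 10 was at 0 throughout a group. In IKKβ-/- mice 6 of the 9 adipocyte markers tested were higher with Ang II, Adipoq by 4.70, Cidec by 4.89 and Plin1 by 4.04 on the log2 scale. Sums of the 7 lymphatic endothelial markers were 737 to 1067 with saline and 858 to 3972 with Ang II. With the mean adipocyte marker level as a covariate, the log2 fold change of Kdr was 0.39 (adjusted p = 0.892), and with X2384 and X2385, the mice of highest adipocyte sums, left out it was 1.09 (adjusted p = 0.414). The covariate itself rose with Ang II in these mice, so that fit cannot separate the adipocyte marker level from Ang II. Mouse X2386 had Kdr at 348 with an adipocyte sum of 4648, and X2380 had Kdr at 40.7 with a sum of 3690. The part of these markers in the Kdr result was not tested beyond these fits.

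Emcn, the sialomucin, was at 47.3, 208, 73.9 and 128 normalized read counts in IKKβ-/- saline mice and at 847, 119.8, 465, 161 and 148 with Ang II. The high mice were X2380 and X2384, of which X2380 was the lowest of its group for Kdr. The log2 fold change of Emcn was 1.38 ± 0.54 (adjusted p = 0.182). Eng, the BMP co-receptor, was at 1533, 1729, 1076 and 1840.3 with saline and at 3073, 1727, 2302, 1962 and 2194 with Ang II. All but one of the Ang II mice, X2383, were above the saline mice, and the log2 fold change was 0.55 ± 0.19 (adjusted p = 0.125). Without X2383 both passed, Eng at 0.63 (adjusted p = 0.0688) and Emcn at 1.65 (adjusted p = 0.0973), and without X2409 Eng passed at 0.64 (adjusted p = 0.0886).

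For the other members in IKKβ-/- mice the log2 fold changes lay between -0.40 for Tie1 and -0.04 for Cdh5. Tek was at 1676, 2211, 989 and 1203 with saline and at 1348, 546, 1379, 1309 and 1238 with Ang II, groups that overlapped, and its log2 fold change was -0.39 ± 0.28 (95% interval -0.98 to 0.20). Nos3 was at 1319, 1551, 1016 and 839 against 1343, 429, 1079.8, 935 and 1057, a log2 fold change of -0.34 ± 0.29. Mouse X2383 was the lowest of its group for 8 of the 10 genes, among them Pecam1 at 3696 against 8034 to 13244 in the other 4 mice.

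Whether Ang II acted differently in the 2 genotypes was tested as the difference of the 2 Ang II effects. None of the 10 genes was called by limma, none had an unadjusted p under 0.05, and 0% of all genes tested were called, with 1654 genes at an unadjusted p under 0.05; edgeR and DESeq2 also called none of the 10. The largest differences were those of Kdr (log2 1.48, 95% interval -0.15 to 3.11), Emcn (1.32, -0.23 to 2.86) and Tek (0.68 ± 0.39). These intervals are wide, and the lower call for Tek and Nos3 in one genotype and the higher call for Kdr in the other were not shown to differ between genotypes.

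Averaged over both genotypes, Ang II lowered Tek, Nos3 and Tie1 and raised Kdr, 4 of the 10 genes called where 12.7% of all genes tested were. The log2 fold changes were -0.73 ± 0.20 for Tek (adjusted p = 0.0237), -0.65 ± 0.20 for Nos3 (0.0468), -0.58 ± 0.21 for Tie1 (0.0926) and 1.05 ± 0.39 for Kdr (0.0999). This average uses the same mice as both comparisons above and is no separate evidence. Pecam1 at -0.49 ± 0.20 (adjusted p = 0.130), Vwf at -0.58 ± 0.24 (0.130) and Eng at 0.32 ± 0.13 (0.131) had an unadjusted p under 0.05 and were not called. Leaving out 1 mouse lost the averaged Kdr call in 15 of 19 fits and the Tie1 call in 11 of 19 (adjusted p up to 0.171). Tek and Nos3 stayed called in all 19. With the adipocyte covariate, which also rose with Ang II, Kdr was at 0.31 (adjusted p = 0.743).

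The genotypes were compared next, since smooth muscle IKKβ could bear on the endothelium without Ang II. With saline, none of the 10 genes was called by limma, against 5.47% of all genes tested, although 9 of the 10 had negative log2 fold changes, with a median of -0.62 (-0.02 over all genes tested), and 4 had an unadjusted p under 0.05, as did 2857 of the 14845 genes tested. Those were Vwf (-0.96 ± 0.34, adjusted p = 0.134), Tek (-0.80 ± 0.28, 0.130), Cdh5 (-0.76 ± 0.31, 0.185) and Eng (-0.48 ± 0.19, 0.168). For all of the 10 genes the 2 saline groups overlapped, a count given without its share over all genes tested. In the same comparison smooth muscle markers were positive in 8 of 8 genes (median log2 fold change 0.29) and fibroblast markers negative in 7 of 7 (-0.48), with none called by limma and 3 and 2 of them at an unadjusted p under 0.05, and their part in these values was not tested. By DESeq2 Tek and Vwf were called, and edgeR called none of the 10. Shares of all genes called by these methods are not given. These saline groups are also the controls of the Ang II comparisons, so the higher Tek and Vwf of IKKβ+/+ saline mice enter both results.

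With Ang II, the members of IKKβ-/- and IKKβ+/+ mice were not distinguished. None of the 10 was called by limma, edgeR or DESeq2, none had an unadjusted p under 0.05, and 0.128% of all genes tested were called. The log2 fold changes ran from -0.29 (Vwf, 95% interval -0.96 to 0.39) to 0.40 (Kdr, -0.72 to 1.52). Averaged over the treatments, the genotype effect called none of the 10 either, against 7.24% of all genes tested. An unadjusted p under 0.05 was reached by 3285 of the 14845 genes tested and by 3 of the 10 members, namely Vwf (-0.62 ± 0.24, adjusted p = 0.134), Cdh5 (-0.52 ± 0.21, 0.162) and Tek (-0.46 ± 0.20, 0.173). Of these, DESeq2 called Vwf, and edgeR called none.

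Dividing each gene by Pecam1 within the same library removes the library's scale and any change shared with Pecam1. These ratios were chosen after the data had been seen. Over the 9 other genes and 4 pairwise comparisons, 36 exact two-sided permutation tests over mice were run and adjusted together by Benjamini-Hochberg. The smallest exact p these group sizes allow is 0.00794. In IKKβ+/+ mice Tek fell from 18.3 ± 0.738% (SD, n = 5) of the Pecam1 count with saline to 13.3 ± 1.36% (n = 5) with Ang II, where the highest mouse was at 15.0%. The groups did not overlap (difference of log2 ratios -0.46, exact p = 0.00794, adjusted p = 0.0571), so Tek fell by more than Pecam1 did. The Eng share of Pecam1 went the other way, from 13.5 to 16.8% with saline to 17.5 to 32.2% with Ang II. These groups did not overlap either (0.70, exact p = 0.00794, adjusted p = 0.0571). Eng itself had a log2 fold change of 0.09 there and Pecam1 one of -0.62, neither called by limma. In IKKβ-/- mice the Eng share also rose, from 12.2 to 21.5% to 23.2 to 46.7% (0.90, exact p = 0.00794, adjusted p = 0.0571). The log2 fold changes there were 0.55 for Eng and -0.36 for Pecam1, neither called by limma. Tek was at 13.9 to 15.6% with saline and at 10.2 to 16.3% with Ang II in these mice (-0.03, exact p = 0.976).

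Emcn rose relative to Pecam1 in IKKβ-/- mice, from 0.405 to 1.49% with saline to 1.81 to 6.39% with Ang II (difference of log2 ratios 1.74, exact permutation p = 0.0159, adjusted p = 0.0952). Between the saline groups, Tek and Cdh5 were lower relative to Pecam1 in IKKβ-/- mice, each without overlap and each with an exact p of 0.00794 (adjusted p = 0.0571). Cdh5 was at 14.4 to 15.9% of Pecam1 in IKKβ+/+ and at 11.5 to 13.5% in IKKβ-/- saline mice, a difference of log2 ratios of -0.29, and that of Tek was -0.33. The other 30 of the 36 ratios did not pass. With Cdh5 in place of Pecam1, the Ang II changes of Tek (-0.55) and Eng (0.61) in IKKβ+/+ mice still passed at an adjusted p of 0.0952. The Eng (0.59, adjusted p = 0.186) and Emcn (1.42, 0.143) ratios of IKKβ-/- mice and the Tek ratio between saline groups (-0.05, 0.562) then did not.

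**Figure D3:**
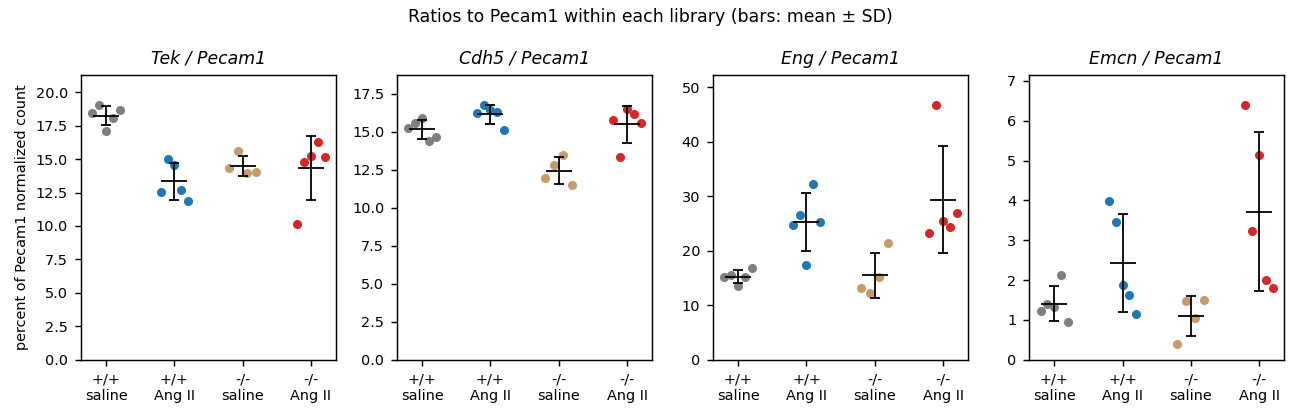
Normalized count of Tek, Cdh5, Eng and Emcn as a percent of the Pecam1 count of the same library (vertical axes, from 0) in the 4 groups (horizontal axes). Points are mice and bars the mean ± SD; Tek stands at 17.1% or more in IKKβ+/+ saline mice, with the Ang II mice of that genotype all below, and Eng stands higher with Ang II than with saline in both genotypes.

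Across mice the 10 genes did not vary as 1 group. Deviations of the log2 values from the group means were correlated over the 19 mice as a description, with no test, since all genes of a mouse share 1 library and its scaling. Pecam1, Cdh5, Tek, Tie1, Vwf and Nos3, grouped after their correlations had been seen, had Pearson r of 0.74 to 0.99 over their 15 pairs (Spearman rho 0.70 to 0.98), with Pecam1 and Cdh5 the closest. Eng was at r = 0.51 to 0.88 with these 6, closest to Vwf, and Erg at 0.24 to 0.50. For Kdr the values with the 6 ran from 0.12 with Vwf to 0.35 with Tek, and its r with Emcn was -0.11. Kdr and Erg had an r of 0.62.

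Set beside marker lists, the 6 genes followed arterial endothelial markers (Gja4, Gja5, Bmx, Efnb2 and others), at r = 0.83 to 0.95 with the mean of that list. They had r of 0.00 to 0.14 with lymphatic markers. The arterial list did not stand alone, as they had r of 0.75 to 0.94 with 22 further pan-endothelial genes. With endothelial transcription factors their r was 0.75 to 0.92. Kdr had the reverse pattern for the arterial and lymphatic lists, with r = 0.23 to the arterial and 0.88 to the lymphatic list. Its r was 0.80 to both the capillary and the fibroblast lists, 0.58 to the adipocyte list and 0.45 to the pan-endothelial genes. Lymphatic markers include Lyve1, Prox1, Flt4 and Pdpn, of which Flt4 is the VEGF receptor of lymphatic vessels. Pericyte markers ran against the 6 genes, with r from -0.81 for Tie1 to -0.57 for Vwf. Emcn had r = 0.63 to arterial and 0.18 to capillary markers.

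**Figure D4:**
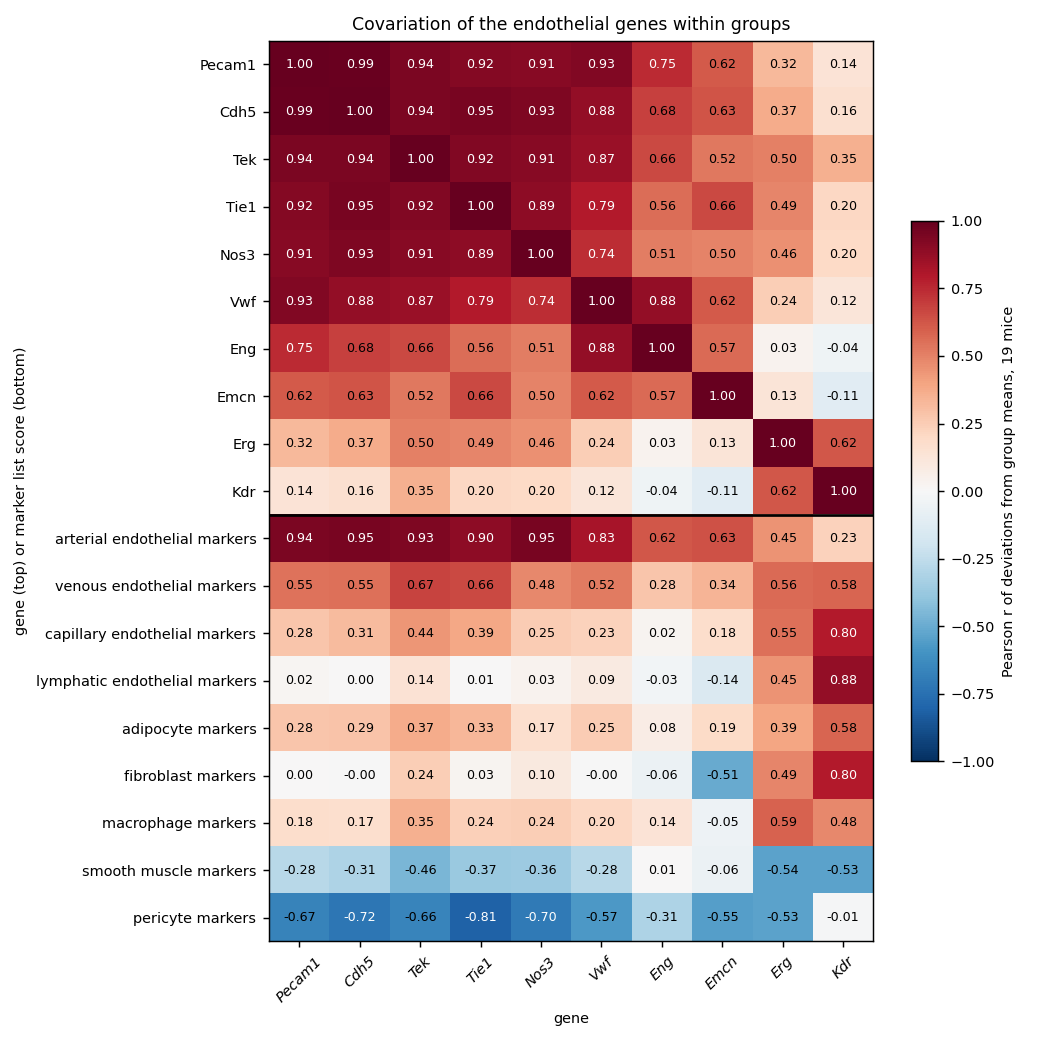
Pearson r, over 19 mice, between deviations from group means of the 10 genes (top block) and between these genes and the mean of marker lists (bottom block); columns are genes and colour runs from -1 (blue) to 1 (red). The 6 genes at the upper left share r of 0.74 to 0.99, and Kdr, in the last column, is at 0.88 with lymphatic and 0.23 with arterial markers.

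**Figure D5:**
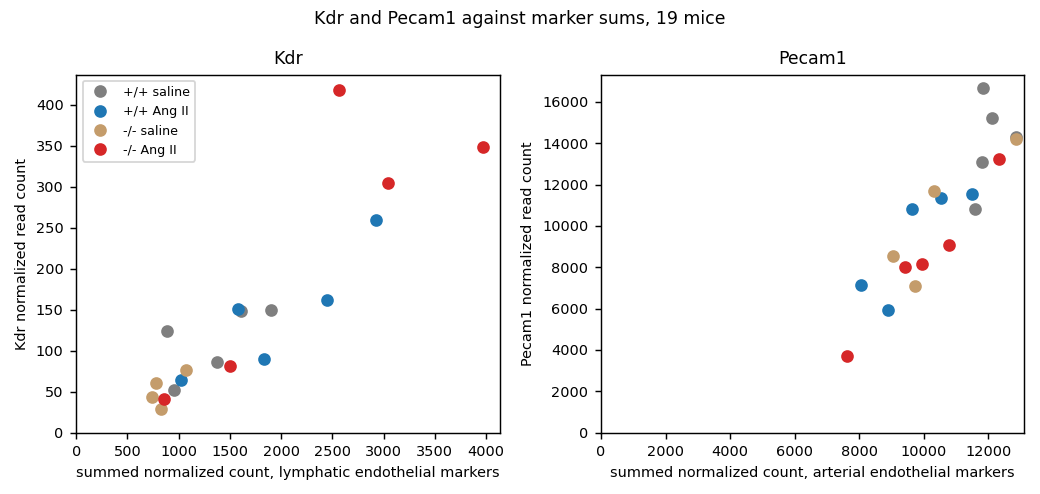
Left, Kdr normalized read count against the summed normalized count of 7 lymphatic markers; right, Pecam1 against that of 13 arterial markers (all axes from 0, 19 mice, colours are groups). Of the IKKβ-/- Ang II mice, 3 are at 304 to 417 for Kdr with high lymphatic sums, and X2383 is lowest for Pecam1, at 3696, and lowest in arterial sum, at 7625.

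The 10 genes most like the members, by r between their deviations and the mean deviation of all 10 members over the 19 mice, were Hspa12b (0.95), S1pr1 (0.93), Cmip (0.92), Myrip (0.92), Mmrn2 (0.92), Tspan7 (0.92), Adgrf5 (0.92), Ptprb (0.91), Gja5 (0.91) and Rph3al (0.91). Among them S1pr1 is the sphingosine-1-phosphate receptor of endothelium, Gja5 the arterial connexin 40 and Ptprb the phosphatase VE-PTP that acts on Tek.

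Other endothelial lists went in both directions with Ang II in IKKβ+/+ mice, where 8.66% of all genes tested were called. Of 22 further pan-endothelial genes, 7 were lower with Ang II and none higher, and 21 of the 22 log2 fold changes were negative, with a median of -0.67. Clec14a (-1.34, adjusted p = 0.0219), Podxl (-1.19, 0.0142) and the tight-junction gene Cldn5 (-1.16, 0.0519) had the largest values. In the angiopoietin-Tie axis, 3 of 8 genes were lower: Tek, the ligand Angpt1 (-1.43, adjusted p = 0.0463) and the phosphatase Ptprb (-1.11, 0.0321). Among 19 endothelial transcription factors Sox7 (-1.09, 0.0425), Mef2c (-0.61, 0.0604) and the hypoxia factor Epas1 (-0.42, 0.0902) were lower and none was higher. In the VEGF list of 10, the ligand Pgf was higher (2.15, adjusted p = 0.0258) and the co-receptor Nrp1 lower (-0.53, 0.04997).

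For the nitric oxide-cGMP axis, 2 of 17 tested genes were lower, Nos3 and Ddah2 (-0.34, adjusted p = 0.0698), an enzyme that clears the NO synthase inhibitor ADMA. Of 13 haemostasis genes only F8, coagulation factor VIII, was called (-1.23, 0.0955), and of 15 genes of the endoglin-BMP axis none was, by limma. Arterial markers gave 2 lower of 13, Bmx (-1.18, 0.0419) and Efnb2 (-0.48, 0.0976). In the capillary list, Timp4 was higher (1.16, 0.0151) and Meox2 lower (-1.01, 0.0939), while 9 of its 12 log2 fold changes were positive, with a median of 0.54. Lymphatic markers had 6 of 6 positive values, a median of 0.62 and none called by limma (1 at an unadjusted p under 0.05). Of 6 venous markers Ephb4 was lower (-0.36, 0.0762). Markers of other cell types moved too. Of 8 smooth muscle markers, Des (0.86, 0.0668), Cnn1 (0.82, 0.0303) and Tagln (0.66, 0.0653) were higher and all 8 values were positive. Fibroblast markers had 7 of 7 negative values with a median of -0.55, and Lum was called (-1.27, 0.0757). Macrophage (7 of 8) and platelet markers (5 of 5) were mostly negative as well, with medians of -0.21 and -0.40, none called by limma and 0 and 1 at an unadjusted p under 0.05. The part of these markers in the lower Tek and Nos3 was not tested.

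In IKKβ-/- mice the capillary, lymphatic and arterial lists are given beside the adipocyte markers, of which 6 of 9 rose, with a median log2 fold change of 2.91. Over all genes tested 5.29% were called in this comparison. Capillary markers rose in 4 of 12 genes, with Cd300lg at 3.89 (adjusted p = 0.0227), Btnl9 at 2.92 (0.0971) and the fatty acid transporter Cd36 at 2.35 (0.0221). Lymphatic markers rose in 2 of 6, Mmrn1 (4.43, 0.0330) and Lyve1 (1.07, 0.0593). Among IKKβ-/- mice, those with the highest capillary sums, X2385 (33610) and X2384 (30981), also had the highest adipocyte sums, 13421 and 15883. The saline mouse X2406 of this genotype had a capillary sum of 26899 with an adipocyte sum of 1169. The part of adipose tissue in these calls was not tested. Arterial markers had none called of 13 by limma, with a median log2 fold change of -0.35. Of the 22 pan-endothelial genes Cyyr1 (1.28, 0.0761) and Tspan18 (1.09, 0.0872) rose and Podxl fell (-0.93, 0.0704). Most of that list was negative, 15 of the 22 log2 fold changes, with a median of -0.21. Around Eng, the BMP response genes Smad6 (0.78, 0.0600) and Id3 (0.55, 0.0200) rose, 2 of 15 in that axis. The shear-stress factor Klf2 fell (-1.14, 0.0177), 1 of 19 transcription factors, and so did Ddah2 (-0.58, 0.00958). The anticoagulant receptor Thbd rose (0.74, 0.0204), as did Lrg1 (2.21, 0.0675), 1 of 6 venous markers. The venous list did not rise as a whole, with 4 of the 6 log2 fold changes negative and a median of -0.02.

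With saline, the IKKβ-/- mice had lower Nrp1 (-0.73, adjusted p = 0.0367), 1 of the 10 VEGF genes, and lower Plat (-1.37, 0.0483), the tissue plasminogen activator, 1 of 13 haemostasis genes. Cyyr1 was also lower (-1.31, 0.0779), 1 of 22 pan-endothelial genes. Over all genes tested 5.47% were called in this comparison, so 1 call in lists of these sizes is not a result about the list. The capillary gene Cd300lg was lower too (-3.02, 0.0790), and all 9 tested adipocyte markers had negative log2 fold changes, with none called by limma. The macrophage markers Adgre1 (-1.02, 0.0779) and Cd68 (-0.93, 0.0674) were lower, 2 of 8. Angiopoietin-Tie, transcription factor, arterial, lymphatic and venous lists had no gene called in this comparison by limma.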

How the data were processed

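The authors trimmed single-end stranded poly(A) reads with Trimmomatic 0.35 and aligned them to GRCm38 with STAR 2.7.1a, which also gave the gene read counts. RSEM gave TPM values, not used here. The deposited signal is a table of read counts normalized by the authors with DESeq2 1.30.1. Dividing each column by the value of 1 read gave whole reads for 100% of values, within 0.01 reads. No column was left unmapped.

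A gene was tested where 4 or more mice reached 10 normalized counts (14845 genes, with 5563 left out). limma 3.58.1 in R 4.3.3 was fitted with 4 group means and a variance trend on log2(normalized count + 1). edgeR 4.0.16 and DESeq2 1.42.0 were run on the recovered reads as alternatives. On simulated counts the fit was tested before use. Exon lengths are from GENCODE M21, which differs from the annotation the study used, M25. Replicates are single mice.

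The members and gene lists were chosen with earlier results of these data known. Named genes are the 10 members and, per comparison and list, up to 3 called genes in each direction by size of change, plus the 10 genes most like the members. Counting intervals are not given; spread between mice sets the errors.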

Additional observations from a re-analysis of the deposited data

Results flagged for a closer look

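Of the 40 sets of values checked (10 genes in 4 groups), 2 held a mouse farther from the rest than Dixon's critical value, where chance alone gives about 1 in 20. Tek was 546 in X2383 of the IKKβ-/- Ang II group, while the other 4 mice lay between 1238 and 1379. Eng was 1636 in X2370 of the IKKβ+/+ saline group, while the other 4 lay between 2167 and 2369. Both mice were also the lowest of their groups for most other members, X2383 for 8 of the 10 genes and X2370 for 6.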

How the results depend on the processing

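In IKKβ+/+ mice, 2 members called for Ang II became 5 with only the groups compared in the fit, 4 by DESeq2 and 1 at an adjusted p under 0.05. Leaving out 1 mouse gave 0 to 4: 0 without X2358, 1 without X2350, X2372 or X2373, and 4 without X2356 or X2383. The 1 member called in IKKβ-/- mice became 0 with no filter on low values, with only the groups compared, at an adjusted p under 0.05, with the adipocyte covariate and, in a setting added after seeing the data, without X2384 and X2385, and 3 by DESeq2. Leaving out 1 mouse gave 0 to 3, with 3 without X2383, 2 without X2409, 1 without X2350, X2356, X2372 or X2380 and 0 without any of the others. For Ang II averaged over genotypes, 4 became 2 with no filter and 2 at an adjusted p under 0.05, and 2 to 6 without 1 mouse (2 without X2358, X2359, X2372, X2373, X2376, X2378, X2385, X2386, X2401 or X2403, and 6 without X2380). For the genotypes with saline, 0 became 4 with only the groups compared, 5 with array weights and 2 by DESeq2, and 0 to 2 without 1 mouse (X2380, X2383 or X2409). For genotype averaged over treatments, 0 became 2 with array weights, 1 by DESeq2 and 0 to 2 without 1 mouse (X2370 or X2380). The causes were not tested, and the shares of all genes called under these settings are not given. The difference between genotypes and the genotype effect with Ang II had 0 called in every setting. No called fold change of a member reversed. Leaving out 1 mouse kept the sign of the 6 ratios to Pecam1 that passed, with adjusted p up to 0.143. With 1 mouse fewer, the smallest possible permutation p rises for comparisons that include the IKKβ-/- saline group. A higher adjusted p there need not mean weaker separation. No paired analysis was possible because the labels give no shared replicate numbers. With 4 or 5 mice a group, and 29.0 to 417 normalized counts of Kdr, small changes of the rarer genes were not detectable.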

Other observations

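Genes most like single members were looked up after the values had been seen and are given as a description over 19 mice. Deviations of Kdr from its group means were closest to those of Penk (r = 0.90), which encodes proenkephalin, Hvcn1 (0.88) and Ggt5 (0.85), none of them in the endothelial lists. Those of Eng were closest to Ece1 (0.89), the endothelin-converting enzyme, and Ace (0.88), the angiotensin-converting enzyme. Erg was closest to H2-T24 (0.84) and Rtp4 (0.83), an interferon-induced gene.

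Among genes by which endothelium recruits leukocytes (Vcam1, Icam1, Sele, Selp, Ccl2 and Cx3cl1), limma called none of the 6 in IKKβ+/+ or IKKβ-/- mice alone. Averaged over genotypes, where 12.7% of all genes tested were called, Vcam1 (log2 fold change -0.56, adjusted p = 0.0590) and Cx3cl1 (-0.37, 0.0969) were lower with Ang II. The list as a whole went in both directions, with 3 log2 fold changes positive and 3 negative and a median of 0.03.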
